A study of Homo sapiens with 4 samples.

Results

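DEAD and DEAH box RNA helicases are 2 related families of enzymes that use ATP to unwind or remodel RNA and the proteins bound to it. They are named after amino acids of a conserved motif that takes part in ATP hydrolysis. Each member serves a particular step in the life of RNA: the cutting and folding of ribosomal RNA in the nucleolus, the rearrangements of the spliceosome, export of mRNA through the nuclear pore, translation initiation, mRNA decay, or the sensing of viral RNA. Most of them are expressed in nearly every dividing cell, and a few are restricted to the germ line.

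Members were the genes whose symbol in the platform annotation begins with DDX or DHX and a digit, leaving out DDX58, and a gene was represented by the brightest of its probe sets that carried a single gene symbol. This gave 50 genes, 34 DDX and 16 DHX, of 18417 genes tested. Another 8 probe sets list a DDX name together with other symbols and were not used for any member. DDX18 was not analysed here.

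RNA came from a derivative of H1299 cells with a stably integrated tet-on construct for wild-type mouse p53, and was measured on a whole-transcript Affymetrix array. H1299 is a line from a human lung carcinoma of the non-small cell type that has lost its own p53. Induced cells had received 0.5 µg/mL doxycycline for 24 hours (2 arrays), and uninduced cells of the same line had not (2 arrays). The medium of both held tetracycline-free serum. The labels call the arrays of a group technical replicates and do not say whether they share a culture or an RNA extract, so the p-values below describe array-to-array spread alone, and having 4 arrays limits their precision. None of the 4 arrays came from cells given doxycycline without the construct, so drug and p53 cannot be told apart. The line is stable, and the labels do not say whether it is a single clone. In such bulk RNA, fewer cells of a type and less RNA per cell cannot be told apart.

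All values are log2 expression levels, on which a difference of 1 is a 2-fold change. Genes were tested with limma's moderated test over all 18417 genes, and a gene was called at a Benjamini-Hochberg adjusted p under 0.05. Known p53 targets followed the labels: CDKN1A, the p21 inhibitor of cyclin-dependent kinases, was at 12.63 and 12.50 on induced arrays, against 9.16 and 9.11 on uninduced arrays, and MDM2, the ubiquitin ligase that degrades p53, was at 12.70 and 12.76 on induced arrays, against 9.84 and 9.85 on uninduced arrays. The carcinoma markers KRT8, KRT18, VIM and CD44 lay between 9.41 and 12.75 on the 4 arrays; KRT8 rose by 1.145, VIM and CD44 fell by 0.40 and 0.39, and KRT18 was not called. Of 3 markers of differentiated lung epithelium, SCGB1A1 rose by 2.03, at 8.53 on both induced arrays, against 6.59 and 6.41 on uninduced arrays, SFTPC rose by 0.295 and NKX2-1 was not called. Of 19 blood, endothelial and fibroblast markers, 3 rose and none fell, where 20.6% of all genes rose and 24.6% fell. ITGAM rose by 1.335, at 8.97 on both induced arrays, against 7.67 and 7.60 on uninduced arrays. CD3E and TEK rose by 0.26 and 0.34 at dim levels. The median level of the 19 markers was 6.35 on induced and 6.41 on uninduced arrays. Those medians serve here as a rough floor, since the table gives no detection calls. The mean over the 8 blood markers was 6.40 and 6.27 on the induced arrays, against 6.18 and 6.12 on the uninduced arrays, and the part of other cells in the results was not tested.

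Some stretches around start sites that enter the later comparison of sequence and direction are shown first. They are RefSeq sequences of build GRCh38.p14, read 5′ to 3′ along the gene. In the largest called falls, DDX20 and DDX10, capitals mark TTTGAA or its reverse complement TTCAAA, the core of the cell cycle homology region found in many cell cycle promoters. The stretch of DDX10 is the 120 bases before its start site (chr11:108664949-108665068, plus strand), and that of DDX20 is 30 bases that begin 21 bases into the gene (chr1:111755921-111755950, plus strand). The match in DDX20 thus lies after the start site, 37 bases into the gene, and not upstream of it. In the printed stretch it follows an ATG in the same reading frame, so it may be coding sequence.
DDX10: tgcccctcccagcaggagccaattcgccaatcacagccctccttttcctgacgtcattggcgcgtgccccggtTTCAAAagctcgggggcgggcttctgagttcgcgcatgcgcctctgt
DDX20: taccatggcggcggcaTTTGAAgcctcggg
In 4 members that rose, capitals mark CACGTG, the E-box bound by MYC and related factors. Each stretch is the 120 bases before a start site, at chr10:125881293-125881412, minus strand for DHX32, chr17:64506639-64506758, minus strand for DDX5, chr12:113185479-113185598, minus strand for DDX54 and chr9:132669984-132670103, minus strand for DDX31.
DHX32: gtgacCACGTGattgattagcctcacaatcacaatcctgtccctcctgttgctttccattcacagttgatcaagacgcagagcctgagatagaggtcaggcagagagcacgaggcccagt
DDX5: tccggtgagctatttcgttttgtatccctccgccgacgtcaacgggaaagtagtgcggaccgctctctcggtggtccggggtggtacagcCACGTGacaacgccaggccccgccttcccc
DDX54: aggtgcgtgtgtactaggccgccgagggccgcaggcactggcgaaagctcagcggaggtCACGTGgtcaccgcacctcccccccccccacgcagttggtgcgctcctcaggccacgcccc
DDX31: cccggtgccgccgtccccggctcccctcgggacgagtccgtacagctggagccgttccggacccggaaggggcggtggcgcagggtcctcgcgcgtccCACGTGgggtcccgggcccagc
The neighbouring genes DDX19B and DDX19A both rose on their brightest probe set. The 60 bases before their start sites (chr16:70299126-70299185, plus strand, and chr16:70346843-70346902, plus strand) each hold CTTCCGG, an ETS core, here in capitals.
DDX19B: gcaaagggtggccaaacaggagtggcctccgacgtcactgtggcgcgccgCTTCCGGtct
DDX19A: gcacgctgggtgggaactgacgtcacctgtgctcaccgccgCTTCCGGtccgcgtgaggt

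Of the 50 helicase genes, 23 were lower and 10 higher on the induced arrays, and 17 did not pass the test. The share lower was 46.0%, where 24.6% of all genes were called lower, and the share higher was 20.0%, where 20.6% of all genes were called higher. At a change of at least 2-fold, 3 members were lower (DDX20, DDX10 and DDX56) and 2 higher (DHX32 and DDX19B), against 6.77% and 6.48% of all genes (13.2% in either direction). Single arrays moved these counts: 15 members were lower without uninduced array 2 and 16 without uninduced array 1, 6 were higher without uninduced array 1, and 5 were lower at 2-fold without induced array 2 and 2 without induced array 1. Over all genes, too, fewer were called lower and fewer higher whichever array was left out, so such losses are not particular to the members. The family held many calls of modest size: the median absolute log2 fold change was 0.46 over members and 0.23 over all genes (at or above the 40th percentile of mean level, 0.56 over 40 members and 0.41 over all genes), and the extremes of members were -1.765 and 1.535, where all genes ranged from -3.98 to 6.215.

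Members were brighter than most genes, and brightness moved with the calls. The median member stood at the 78.1st percentile of mean level. In a fit restricted to genes at or above the 40th percentile, 68.0% of 11053 genes were called, 37.6% lower and 30.4% higher. In that fit 25 of the 40 members tested were lower and 10 higher. In the fit over all genes, 34.8% of the genes at or above that level were called lower and 27.7% higher, 62.5% together, and these bright genes are the nearer background for the groups below. Of the 10 members under that level, 1 (DDX59) was called in the fit over all genes. The part of brightness in the members' share of calls was not tested further.

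**Figure D1:**
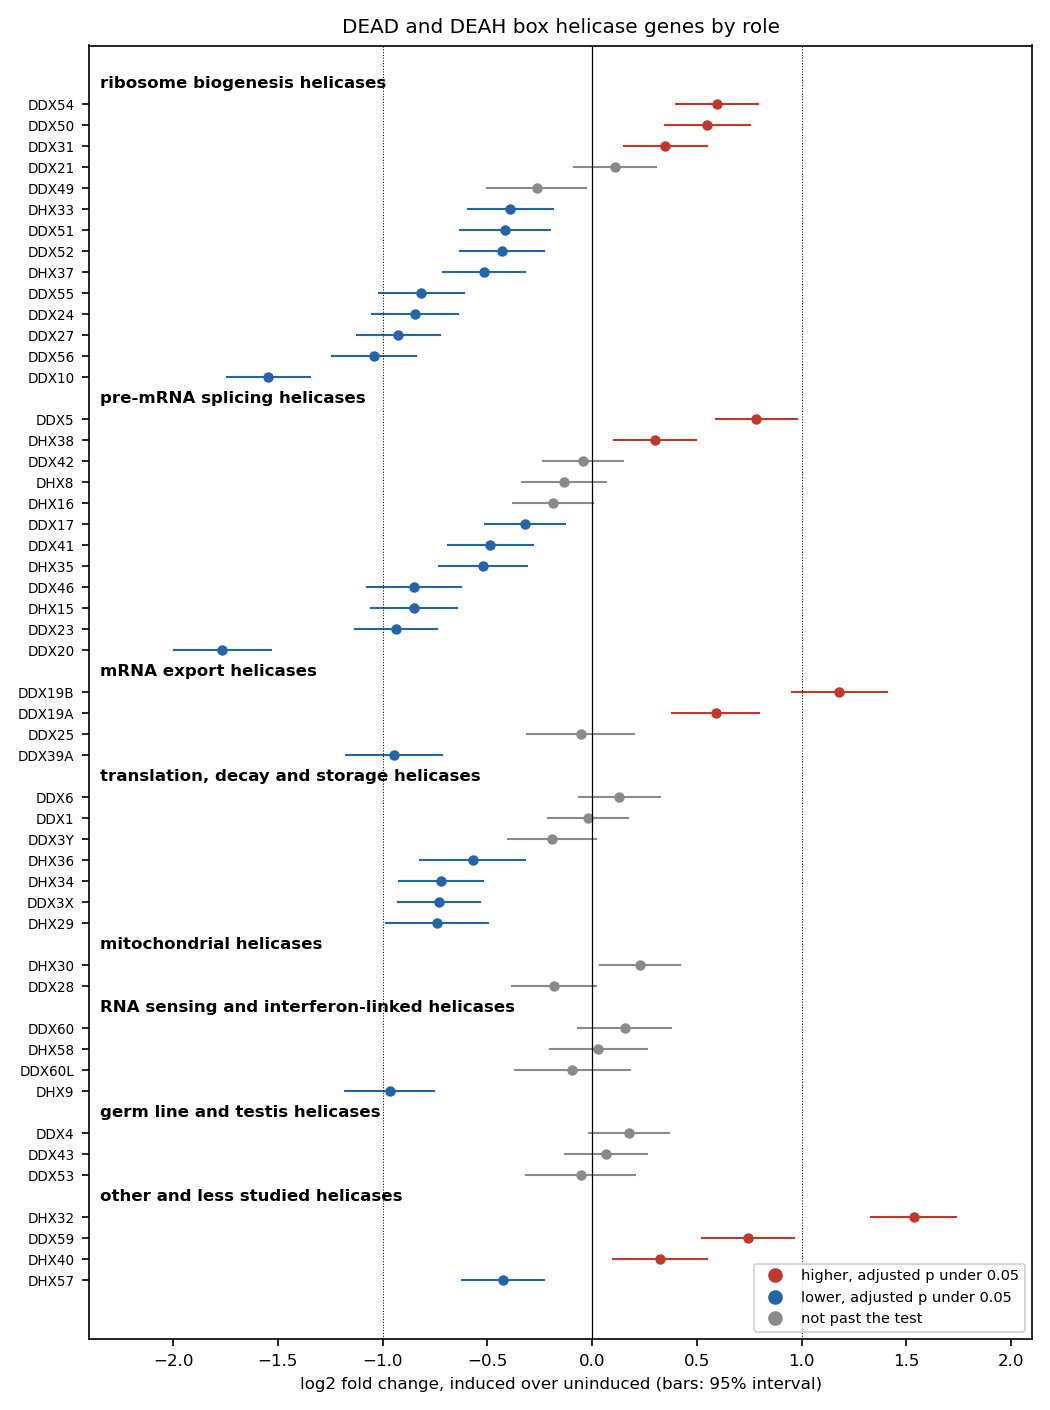
Log2 fold change of each of the 50 helicase genes, induced over uninduced (x axis), grouped by role down the page; points are estimates from 2 arrays a group and bars 95% intervals, with dotted lines at a 2-fold change. Ribosome biogenesis and splicing helicases lie mostly on the lower side, with DDX10 at -1.545 and DDX20 at -1.765, and the largest rise is that of DHX32 at 1.535.

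**Figure D2:**
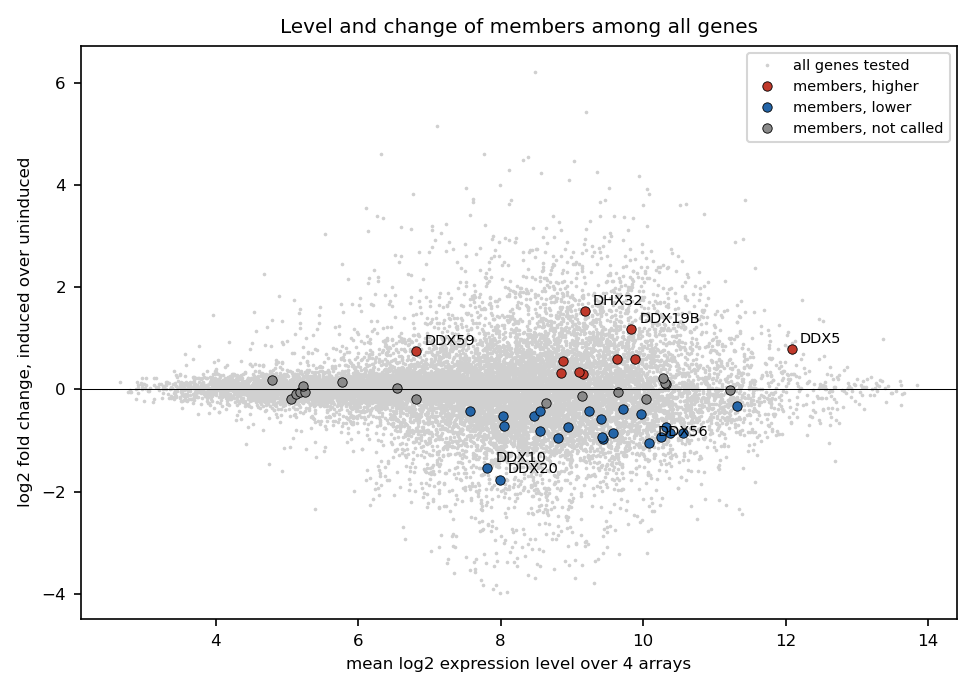
Mean log2 level over the 4 arrays (x axis) against log2 fold change, induced over uninduced (y axis), for all 18417 genes (grey) and the 50 helicase genes (coloured by call). Most members lie at the bright side, between -1.765 and 1.535 on the vertical axis, and of the 10 dim members at the left, 9 lie near 0 and DDX59 lies at 0.745.

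Helicases of ribosome biogenesis fell for the most part. Of 14 measured, 9 fell (64.3%, where 24.6% of all genes and 34.8% of bright genes fell) and 3 rose (21.4%, where 20.6% and 27.7% rose). The percent called in either direction was 45.1 among all genes and 62.5 among bright genes. The median log2 fold change of the group was -0.42 against 0 over all genes. These enzymes act in the nucleolus, where they release small nucleolar RNAs and refold ribosomal RNA precursors. DDX10, which is needed for early processing of ribosomal RNA, was at 6.99 and 7.08 on induced arrays, against 8.60 and 8.56 on uninduced arrays. The groups lay far apart relative to their spread, and DDX10 fell by 1.545 on the log2 scale (SE 0.085, limma adjusted p = 6.4e-06). DDX56, a factor of large subunit assembly, was at 9.52 and 9.62 on induced arrays, against 10.60 and 10.62 on uninduced arrays. It fell by 1.04 (SE 0.085, limma adjusted p = 4.4e-05), just past 2-fold, and fell by 0.965 when each array was centred on its median.

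The next members of the group moved by less. DDX27, which takes part in forming the end of the ribosomal RNA precursor, was at 8.91 and 9.00 on induced arrays, against 9.86 and 9.90 on uninduced arrays. DDX24, a large subunit factor also reported to act on p53 regulation, was at 9.89 and 10.02 on induced arrays, against 10.79 and 10.81 on uninduced arrays, and DDX55, another large subunit factor, at 8.13 and 8.15 on induced arrays, against 9.01 and 8.90 on uninduced arrays. In each of these the induced arrays were the lower ones and no values overlapped, with log2 fold changes of -0.925, -0.845 and -0.815. Such separation was common: of all 18417 genes, 6322 had both induced arrays below both uninduced ones and 5978 had them above, while 6117 overlapped. Separation of the groups alone does not set a member apart, here or below. DHX37, which frees the small subunit precursor of its guide RNA, fell by 0.515 (SE 0.083). DDX52, DDX51 and DHX33, a nucleolar DEAH helicase linked to RNA polymerase I, fell by 0.43, 0.415 and 0.39. DDX49 had a log2 fold change of -0.265 (SE 0.10, limma adjusted p = 0.0703) and did not pass the test; it passed without dim genes (0.0328) and when the prior followed intensity (0.0229).

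A smaller set of nucleolar helicases was higher. DDX54, a nucleolar helicase whose yeast counterpart acts in large subunit assembly, was at 10.21 and 10.16 on induced arrays, against 9.62 and 9.56 on uninduced arrays. DDX50, a nucleolar relative of DDX21, was at 9.10 and 9.19 on induced arrays, against 8.56 and 8.63 on uninduced arrays, and DDX31 at 9.28 on both induced arrays, against 8.88 and 8.98 on uninduced arrays. The induced arrays were above the uninduced ones in all 3, with log2 fold changes of 0.595 (SE 0.083), 0.55 (SE 0.086) and 0.35 (SE 0.085). DDX21, which joins RNA polymerase I transcription to ribosomal RNA processing, had one of 0.11 (SE 0.083, 95% interval -0.086 to 0.31) and did not pass the test. The calls of DDX51, DDX52 and DHX33 each ended when either uninduced array was left out (limma adjusted p between 0.0583 and 0.115), that of DDX31 when any single array was left out (0.0642 to 0.119), and that of DDX50 without uninduced array 1 (0.0509).

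Among 12 helicases of pre-mRNA splicing, 7 fell (58.3%, where 24.6% of all genes and 34.8% of bright genes fell) and 2 rose (16.7%, where 20.6% and 27.7% rose), and 3 were not called. Their median log2 fold change was -0.40. The largest fall of all members was that of DDX20, also known as Gemin3, which belongs to the SMN complex that loads Sm proteins onto spliceosomal RNAs. DDX20 was at 7.01 and 7.20 on induced arrays, against 8.82 and 8.92 on uninduced arrays. It fell by 1.765 (SE 0.098, limma adjusted p = 6.9e-06), which puts induced cells 3.40-fold lower. DDX23, the helicase that exchanges small nuclear RNAs at the splice site, was at 9.74 and 9.82 on induced arrays, against 10.72 and 10.71 on uninduced arrays. DDX46, which acts as the branch site is recognised, was at 9.09 and 9.23 on induced arrays, against 9.94 and 10.08 on uninduced arrays, and DHX15, which takes spliceosomes apart after splicing, at 10.08 and 10.20 on induced arrays, against 10.98 and 11.00 on uninduced arrays. Induced arrays were below uninduced ones throughout, with log2 fold changes of -0.935, -0.85 and -0.85. DHX35, DDX41, a splicing factor also described as a sensor of DNA, and DDX17 fell by 0.52, 0.485 and 0.32. The call of DHX35 ended without uninduced array 2 (limma adjusted p = 0.0659) and that of DDX41 without uninduced array 1 (0.0656).

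Of the DEAH helicases that drive successive steps of splicing, DHX38 passed the test and DHX16 and DHX8 did not. DHX16, which acts before the first step, had a log2 fold change of -0.185 (SE 0.081, limma adjusted p = 0.108), and its other probe set gave -0.205. DHX38, which acts between the steps, rose by 0.30 (SE 0.083, limma adjusted p = 0.0202), a call that ended when any single array was left out (limma adjusted p between 0.0545 and 0.152). DHX8, which releases the spliced mRNA, had one of -0.135 (95% interval -0.33 to 0.064), and DDX42, a helicase of early spliceosomes, one of -0.045 (95% interval -0.24 to 0.15). DHX16, DHX8 and DDX42 did not pass the test, but DHX16 passed without dim genes (limma adjusted p = 0.0458) and when the prior followed intensity (0.0186).

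DDX5 was the splicing helicase with the larger rise. DDX5, or p68, also serves the Microprocessor that cuts primary microRNAs and is known as a coactivator of p53. It was at 12.47 and 12.49 on induced arrays, against 11.67 and 11.72 on uninduced arrays, and rose by 0.785 (SE 0.082, limma adjusted p = 0.00015). Its close relative DDX17, with overlapping functions, was at 11.17 and 11.16 on induced arrays, against 11.48 and 11.49 on uninduced arrays, and fell by 0.32 (SE 0.081, limma adjusted p = 0.0135). The arrays of each group lay close to one another in both genes, with no overlap. The difference between the 2 genes' changes was not itself tested, and the call of DDX17 ended without either uninduced array (limma adjusted p = 0.103 without array 1 and 0.110 without array 2).

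**Figure D3:**
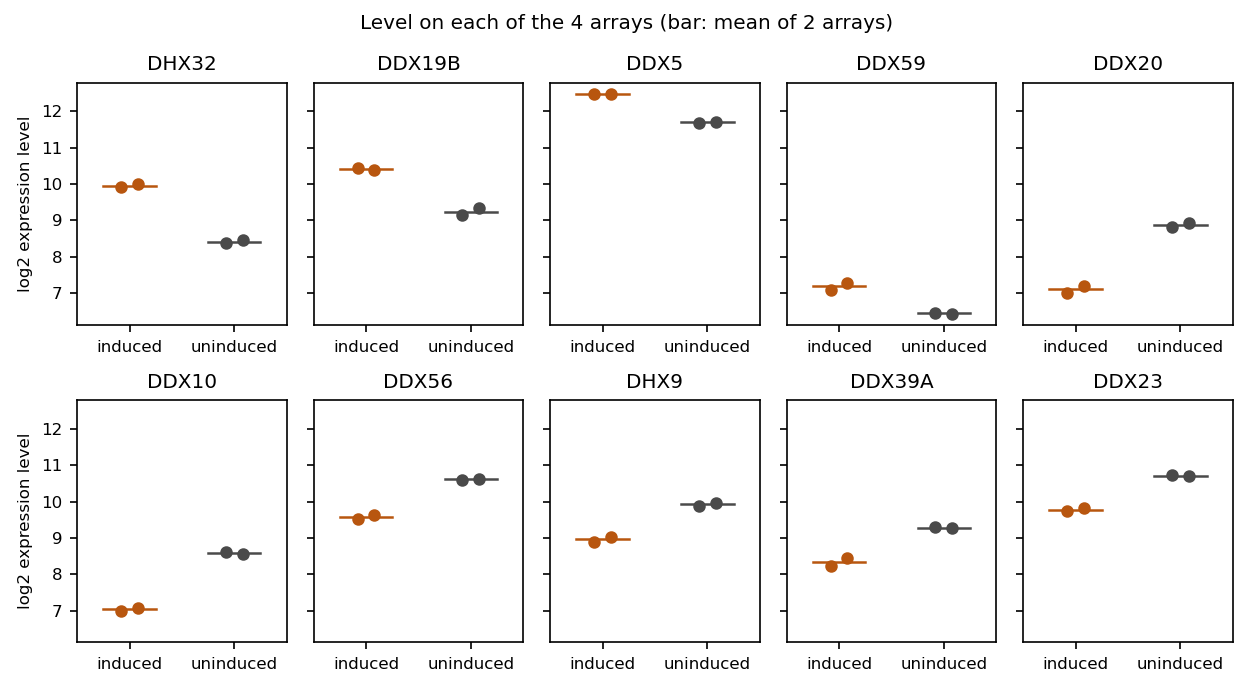
Log2 expression level on each of the 4 arrays (points; bars are means of 2 arrays) for 10 helicase genes, induced left and uninduced right in each panel. In DHX32, DDX19B, DDX5 and DDX59 both induced arrays lie above both uninduced ones, and in DDX20, DDX10, DDX56, DHX9, DDX39A and DDX23 both lie below. Among all 18417 genes, 5978 lie above in this way and 6322 below.

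Of 4 helicases of mRNA export, 2 rose and 1 fell, where 20.6% of all genes rose and 24.6% fell (27.7% and 34.8% of bright genes). DDX19B and DDX19A are near-identical enzymes that strip proteins from mRNA at the cytoplasmic face of the nuclear pore, and their genes are neighbours on chromosome 16. DDX19B was at 10.44 and 10.40 on induced arrays, against 9.14 and 9.34 on uninduced arrays, and rose 2.27-fold (log2 fold change 1.18, SE 0.097, limma adjusted p = 4.5e-05). The brightest probe set of DDX19A was at 9.97 and 9.88 on induced arrays, against 9.28 and 9.39 on uninduced arrays, and rose by 0.59 (SE 0.089, limma adjusted p = 0.00104). Its other probe set was at 8.36 and 8.42 on induced arrays, against 8.50 and 8.55 on uninduced arrays, lower on the induced arrays by 0.135, and did not pass the test (limma adjusted p = 0.304 in a fit of every row, where 32.4% of rows were called, 13.8% higher and 18.5% lower). With the mean of both probe sets the call of DDX19A ended (log2 fold change 0.23, limma adjusted p = 0.0617). Because near-identical copies can share probes, the rise of DDX19A is uncertain.

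DDX39A, which loads export adaptors onto spliced mRNA inside the nucleus, was lower on both induced arrays. It was at 8.23 and 8.44 on induced arrays, against 9.29 and 9.27 on uninduced arrays, and fell by 0.945 (SE 0.098, limma adjusted p = 0.00015). DDX25, a testis helicase of mRNA export, overlapped between groups at 5.24 and 5.08 on induced arrays, against 5.33 and 5.10 on uninduced arrays. Both groups of DDX25 lie under the medians of the blood, endothelial and fibroblast markers.

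Of 7 helicases of translation, decay and storage, 4 fell (57.1%, against 24.6% of all genes and 34.8% of bright genes), 0 rose and 3 did not pass limma's test, with a median log2 fold change of -0.57. DHX29 helps the small ribosomal subunit scan structured leaders, and was at 8.47 and 8.68 on induced arrays, against 9.25 and 9.38 on uninduced arrays. DDX3X, a helicase of translation initiation and stress granules, was at 9.92 and 10.00 on induced arrays, against 10.70 and 10.68 on uninduced arrays. DHX34, an activator of nonsense-mediated decay, was at 7.73 and 7.64 on induced arrays, against 8.38 and 8.43 on uninduced arrays. The 3 genes had alike log2 fold changes of -0.74 (SE 0.10), -0.73 (SE 0.083) and -0.72 (SE 0.085), with no overlap between the groups. DHX36, which unwinds guanine quadruplexes, fell by 0.57 (SE 0.11), and its call ended without either uninduced array and without induced array 1 (limma adjusted p between 0.0509 and 0.108). That of DHX29 ended without uninduced array 2 (0.0543).

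The other translation and decay helicases did not pass the test. DDX6, the decapping activator of processing bodies, was at 10.41 and 10.34 on induced arrays, against 10.25 and 10.24 on uninduced arrays, a log2 fold change of 0.13 (95% interval -0.065 to 0.32). DDX1, which travels in RNA granules and acts in tRNA ligation, was at 11.20 and 11.22 on induced arrays, against 11.21 and 11.25 on uninduced arrays, a log2 fold change of -0.020 (95% interval -0.21 to 0.17). These intervals include 0 and leave out a change of 2-fold either way. DDX3Y, the relative of DDX3X, had a log2 fold change of -0.19 (SE 0.090) at levels under the marker medians.

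The mitochondrial helicases did not pass the test. DHX30, which assembles mitochondrial ribosomes and RNA granules, was at 10.38 and 10.40 on induced arrays, against 10.15 and 10.17 on uninduced arrays. The groups did not overlap, and the log2 fold change of 0.23 (SE 0.081) missed the threshold with a limma adjusted p of 0.0533; it passed with arrays centred on their medians, without dim genes, and when the prior followed intensity. DDX28, a factor of the large mitochondrial ribosomal subunit, had one of -0.18 (SE 0.085, limma adjusted p = 0.134).

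Among helicases of RNA sensing, DHX9 was the 1 of 4 that passed the test, where 45.1% of all genes and 62.5% of bright genes were called. The group was mostly dim, with a median at the 20.7th percentile of mean level. DHX9, also called RNA helicase A, unwinds double-stranded RNA and bridges transcription factors to RNA polymerase II. It was at 8.89 and 9.03 on induced arrays, against 9.89 and 9.96 on uninduced arrays, and fell by 0.965 (SE 0.091, limma adjusted p = 8.7e-05). DHX58, or LGP2, a regulator of the cytoplasmic RNA sensors, was at 6.64 and 6.48 on induced arrays, against 6.46 and 6.60 on uninduced arrays, and the groups overlapped. Its mean level stood at the 26.3rd percentile, a little above the marker medians. DDX60, an interferon-stimulated helicase, and its neighbour DDX60L had log2 fold changes of 0.155 (SE 0.095) and -0.095 (SE 0.12), at levels under the marker medians.

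The germ line helicases did not pass the test. DDX4, the vasa homologue that marks germ cells, was at 4.88 on both induced arrays, against 4.69 and 4.72 on uninduced arrays, and passed with arrays centred on their medians (log2 fold change 0.25, limma adjusted p = 0.0409). DDX43 and DDX53, known from testis and tumours, had log2 fold changes of 0.065 (SE 0.083) and -0.055 (SE 0.11). All 3 lay under the marker medians in both groups, as did DDX3Y, DDX25, DDX60 and DDX60L, which makes 7 members in all. Germ line markers were equally dim: SYCP1, DAZL, MAEL, PIWIL1 and TDRD1 lay between 3.55 and 5.77, and PIWIL1 was called higher (log2 fold change 0.33).

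The largest rise of all members was that of DHX32, a DEAH family protein whose RNA substrate is not established. DHX32 was at 9.91 and 9.99 on induced arrays, against 8.37 and 8.46 on uninduced arrays, and rose 2.90-fold (log2 fold change 1.535, SE 0.087, limma adjusted p = 7.3e-06). DDX59, a gene linked to orofaciodigital syndrome, was at 7.10 and 7.28 on induced arrays, against 6.46 and 6.43 on uninduced arrays. It rose by 0.745 (SE 0.094, limma adjusted p = 0.000405), from an uninduced level close to the marker median. Of the less studied DHX40 and DHX57, DHX40 rose by 0.325 (SE 0.095, limma adjusted p = 0.0262) and DHX57 fell by 0.425 (SE 0.083, limma adjusted p = 0.00405). The call of DHX40 ended when any single array was left out (limma adjusted p between 0.0718 and 0.209), and that of DHX57 without either uninduced array (0.0704 to 0.0727).

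Close relatives within the family were set side by side. DDX50 and DDX21 are neighbours on chromosome 10, with log2 fold changes of 0.55 (95% interval 0.35 to 0.75) and 0.11 (95% interval -0.086 to 0.31), and the intervals do not overlap. DDX60 and DDX60L are neighbours on chromosome 4, and both were dim and not called. Together with DDX19B and DDX19A, these were the adjacent member pairs in the RefSeq gene order. No difference between relatives was tested as such.

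**Figure D4:**
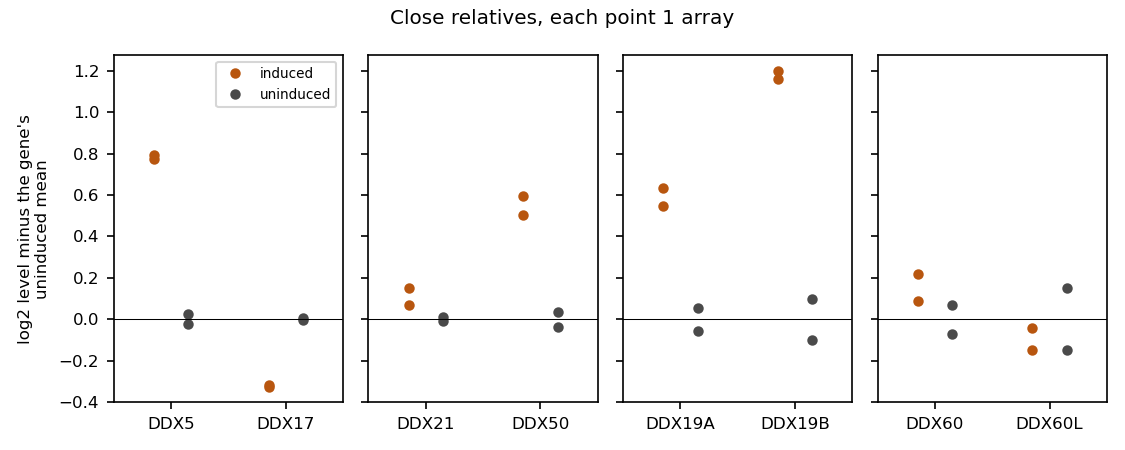
Log2 level on each array minus the gene's own uninduced mean (y axis) for 4 pairs of related helicase genes, induced points left and uninduced points right of each gene. The induced arrays of DDX5 lie above 0 and those of DDX17 below it, and both induced arrays of DDX50 lie higher than those of DDX21.

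Sequence around the start sites of the genes was compared with direction as a description. Promoters of 250 bases before to 50 after a start site were found in RefSeq for 46 of the 50 members and for 14239 tested genes, some of them with several start sites, and each motif was searched on both strands. CACGTG was in a promoter of 10 members (21.7%), against 10.9% of all genes with a promoter. It was there in 5 of the 10 members that rose (DHX32, DDX5, DDX54, DDX31 and DHX40), in 3 of 21 that fell (DHX34, DHX35 and DHX37) and in 2 of 15 not called. In DHX32 it lies 115 bases before the start site, in DDX54 61, in DDX5 30 and in DDX31 22, as the capitals above show. In DHX37 it lies 42 bases after the start site. TTTGAA was in a promoter of 4 members (8.70%), against 15.7% of all genes. It was there in 2 of 21 members that fell (9.52%), 0 of 10 that rose and 2 of 15 not called (13.3%), each share under that of all genes. The 2 that fell were DDX10, with the match 47 bases before the start site, and DDX20, with the match 37 bases after it. These are the 2 members that fell most. DDX21 and DHX16 were not called. CCGGAAG, the ETS core, was added after values were seen. It was in promoters of 21 members (45.7%), against 16.8% of all genes, and in 7 of the 10 that rose, 7 of 21 that fell and 7 of 15 not called. A match is not a site of binding, and no relation between motif and direction was tested.

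Related helicases with other names held calls in both directions. Of 16 measured DExD/H and similar helicases outside the naming rule, 7 rose and 4 fell, with 5 not past the test (median log2 fold change 0.068). The 68.8% called stands beside 45.1% of all genes and 62.5% of bright genes, and HFM1, one of the 7 that rose, was under the marker medians in both groups. DQX1, a DEAQ box gene, was at 9.88 and 10.12 on induced arrays, against 6.41 and 6.17 on uninduced arrays, and was at least 12.0-fold higher, with its uninduced level, which was under the marker median, set to that median (measured log2 fold change 3.71, limma adjusted p = 8.7e-07). IFIH1, the RNA sensor MDA5, was at 8.40 and 8.80 on induced arrays, against 6.57 and 6.77 on uninduced arrays, a log2 fold change of 1.93 (SE 0.14). MTREX, the helicase that feeds RNA to the nuclear exosome, was at 9.78 and 9.89 on induced arrays, against 10.88 and 10.96 on uninduced arrays, and fell by 1.085 (SE 0.088). Whether these genes differ as a group from the DDX and DHX genes was not tested.

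Proteins that work with these helicases were taken in further lists. Of 7 SMN complex partners of DDX20, 5 fell and 0 rose in limma's test, with a median log2 fold change of -0.90. Among all genes 24.6% fell and 20.6% rose, and among bright genes 34.8% and 27.7%. GEMIN6 was at 6.62 and 6.72 on induced arrays, against 8.01 and 7.84 on uninduced arrays, and GEMIN4 was at 7.70 and 7.83 on induced arrays, against 8.94 and 8.85 on uninduced arrays. These 2 genes and GEMIN2, which binds SMN, fell by 1.255, 1.13 and 0.93. GEMIN7 and GEMIN8 did not pass the test, with log2 fold changes of 0.16 and -0.105.

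Export and microRNA partners were also mostly lower. Of 11 TREX and export partners of DDX39A and DDX39B, 10 fell (24.6% of all genes and 34.8% of bright genes did), with a median of -0.385. The largest fall was that of THOC1, a THO subunit that was at 8.17 and 8.20 on induced arrays, against 9.49 on both uninduced arrays. SARNP and THOC6, other parts of TREX, fell by 0.71 (SE 0.11) and 0.61 (SE 0.093). The Microprocessor genes DROSHA and DGCR8, whose proteins work with DDX5 and DDX17, fell by 0.895 (SE 0.094) and 0.795 (SE 0.084). DROSHA was at 8.76 and 8.93 on induced arrays, against 9.71 and 9.77 on uninduced arrays, so that it was lower where DDX5 was higher.

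Cofactors of the helicases include activators and inhibitors. Of 18 G-patch proteins and other DEAH cofactors, 10 fell and 1 rose, with a median of -0.28. Among all genes 24.6% were lower and 20.6% higher, and among bright genes 34.8% and 27.7%. NKRF, a nucleolar partner of DHX15, fell by 1.21 (SE 0.12), and GPATCH2 and the splicing protein gene CHERP fell by 0.635 and 0.61. GPATCH4 was the gene of this list that rose, by 0.54 (SE 0.092). Of 15 cofactors of DEAD box helicases, 5 fell and 3 rose, with a median of 0.070; the 53.3% called was below the 62.5% of bright genes. RBM8A, a core protein of the exon junction complex that with MAGOH holds back the ATPase of EIF4A3, fell by 0.83 (SE 0.11). CWC22, which places the complex on the spliceosome, fell by 0.735 (SE 0.13), and NUP214, the pore protein that docks DDX19, fell by 0.71 (SE 0.086). Of 12 partners of DDX6 in mRNA decay and storage, 5 fell and 3 rose (66.7% called, near the share of bright genes), led by falls of CNOT9 (1.22, SE 0.083), PATL1 (0.58) and LSM14B (0.54).

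RNA sensing partners of DHX58 had 3 higher and 2 lower of 9, with a median of 0.065, and the 55.6% called lay between the 45.1% of all genes and the 62.5% of bright genes. RNF135, a ubiquitin ligase of RNA sensing, rose by 0.96 (SE 0.087) and EIF2AK2, the kinase PKR, by 0.895 (SE 0.096), next to IFIH1 above. Genes that cooperate with the cohesion helicase DDX11 had the largest shifts of these lists: 8 of 9 fell, of which 6 fell 2-fold or more, and the median was -1.755. Of all genes 24.6% fell and 6.77% fell 2-fold or more, and 34.8% of bright genes fell. ESCO2, the S-phase cohesin acetyltransferase, was at 5.84 and 5.93 on induced arrays, against 9.07 and 9.24 on uninduced arrays. Its induced level was under the marker median, and set to that median ESCO2 was at least 6.99-fold lower (measured log2 fold change -3.27, limma adjusted p = 8.0e-07). The replication fork gene WDHD1 fell by 2.42 (SE 0.13) and FEN1, the flap endonuclease, fell by 2.16 (SE 0.087). DDX11 itself has no probe set with a single symbol and was not analysed here. The 3 probe sets that list it with other symbols are described below.

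**Figure D5:**
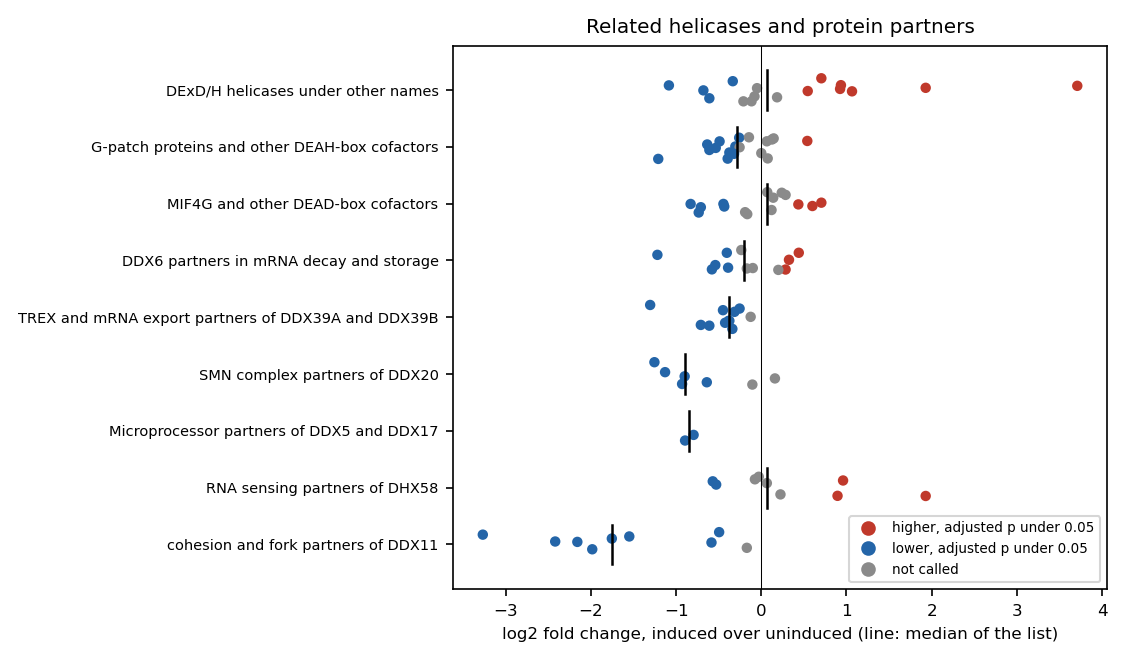
Log2 fold change, induced over uninduced (x axis), of each gene in the lists of related helicases and partners (rows; points coloured by call, vertical line at the list's median). The SMN complex, Microprocessor and DDX11 lists lie on the lower side with medians of -0.90, -0.845 and -1.755, and DQX1 stands apart at a measured 3.71 among helicases with other names.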

How the data were processed

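The authors made the values with Affymetrix Expression Console and RMA, per the submitters' processing notes; their versions, settings and build are not stated by the sources used here. Deposited values are log2 levels per probe set, between 2.26 and 14.3, with array medians of 7.26 to 7.33. RMA equalises the arrays' distributions, which would hide a global change, and changes of dim genes are compressed.

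Of 33297 rows, 19460 had 1 gene symbol, and the brightest per gene gave 18417 genes. The 50 members had 52 such probe sets. limma 3.58.1 in R 4.3.3 (lmFit, eBayes, no covariate, two-sided, with 7.20 degrees of freedom in all, Benjamini-Hochberg over all genes) compared induced with uninduced arrays; groups came from the sample titles. The fit was tested on simulated data. Arrays correlated at 0.995 induced and 0.997 uninduced, and at 0.917 to 0.921 between groups. Every member could be named. Of each list of other genes the 3 largest called changes were named; others, and the choice of printed sequences, followed their values. Members and lists were chosen with earlier results of these data known. Motifs were searched in RefSeq promoters (GRCh38.p14). A planned search of protein sequences was not run. Alternatives were another quantile normalization, median centring, a filter on dim genes, averaged probe sets, all rows, a robust prior that follows intensity, limma's treat, the replicate block and leaving out each array. Python 3.11.15, pandas 2.3.3, numpy 2.4.6 and matplotlib 3.10.9 were used.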

Additional observations from a re-analysis of the deposited data

Results flagged for a closer look

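Signals also appeared in rows the comparisons above do not use. All 8 probe sets that list a DDX name together with other gene symbols were lower on the induced arrays at a limma adjusted p under 0.05 when every row of the table was fitted, and their log2 fold changes lay between -2.735 and -0.395. In that fit 18.5% of all rows were called lower. The 8 carry 4 combinations of names and are not independent. The 3 that list DDX11 with DDX12P had the largest falls, with log2 fold changes of -2.735 to -2.42, beyond the -1.765 of DDX20. The 3 that list DDX39B were at -0.455 to -0.425, 1 that lists DDX47 at -0.585 and 1 that lists DDX11L genes at -0.395. None of the 8 was assigned to a gene. With 2 arrays a group, no search for outlying arrays was possible.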

How the results depend on the processing

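No called member changed direction under any alternative. Of 590 values of single members under the alternatives, 542 kept their side of the threshold, 40 lost the call and 8 gained one. Leaving out an array gave 6 to 7 higher and 15 to 23 lower members, against 10 and 23, and 2 to 5 members lower at 2-fold, against 3. The fewest higher members (6) came without uninduced array 1, the fewest lower (15) without uninduced array 2, and the most at 2-fold (5) without induced array 2. With a group of 1 array, that array is assumed to vary like the other group. Over all genes, leaving out an array also lowered the number called in each direction. The replicate numbers do not settle a pairing: deviations of same-numbered arrays correlated at 0.225 over genes, and with the replicate block 23 members were lower and 10 higher. Over all 18417 genes the block gave 4231 lower and 3588 higher. limma's treat against a 1.2-fold change gave 17 lower and 7 higher members, and 2977 lower and 2502 higher over all genes. Centring each array on its median gave 12 higher and 23 lower members, and 2 in place of 3 lower at 2-fold. Over all genes it gave 4648 higher and 4014 lower, and moved their median by 0.075. Dim members, where changes are compressed, limit what could be seen.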
